A study of Mus musculus with 24 samples.

Results

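The comparison described here set mid-lobule hepatocytes against hepatocytes from both ends of the liver lobule. Zone was taken from the sample title: zones 3, 4, 5 and 6 formed the mid-lobule side (12 arrays) and zones 1, 2, 7 and 8 formed the lobule ends (12 arrays), so all 24 of the 24 arrays were used, each mouse giving 4 arrays to each side. The animals were 3 untreated male C57BL/6J mice aged 3 months, fed ad libitum and kept in a reverse light-dark cycle. From each mouse, tetraploid hepatocytes were sorted into 8 populations of 50000 cells on the surface proteins CD73 (higher toward the central vein, zone 1) and E-cadherin (higher toward the portal vein, zone 8), after removal of dead cells and of cells carrying CD45 or CD31. Total RNA of each population was labelled with Cy3 and hybridised to a 1-colour Agilent miRNA array. The groups therefore describe tetraploid hepatocytes only, and their position is a proxy read from 2 surface proteins. A straight gradient from zone 1 to zone 8 contributes equally to both sides and cancels in this comparison. A hump or a dip in the middle of the lobule gives a difference, and so can a gradient that is not straight.

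Hepatocytes along the lobule divide their labour: pericentral cells synthesise glutamine and bile acids and metabolise foreign compounds, while periportal cells make glucose and urea. Some liver mRNAs, such as those of the iron hormone hepcidin and of Igfbp2, are known to peak between these ends, and mid-lobule hepatocytes are known for their part in normal hepatocyte turnover through an axis of Igfbp2, mTOR and cyclin D1. MicroRNAs are short RNAs that lower the output of mRNAs paired to their seed, bases 2 to 8.

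The sequences shown here belong to the 3 sets that the results turn on, written 5′ to 3′ with the seed in capitals, as RefSeq gives them on GRCm38.p6. Of 6 tested miRNAs found to carry runs of alternating G and U, the first set holds the 3 chosen for higher mid-lobule values in each mouse. None of these passed the test, and its first 2 members were among the 8 that led that side:
miR-3082-5p: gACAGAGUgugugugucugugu
miR-574-5p: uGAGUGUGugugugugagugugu
miR-1187: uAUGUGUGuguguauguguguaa
Its counterpart holds those of 5 tested miRNAs with runs of alternating C and A that belong to the rodent-expanded miR-466 and miR-467 families:
miR-466i-3p: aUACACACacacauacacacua
miR-466q: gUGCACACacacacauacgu
miR-467f: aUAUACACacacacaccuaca
A second set lay on the side with lower mid-lobule values. MiR-27a-3p and miR-27b-3p share 1 seed:
miR-23a-3p: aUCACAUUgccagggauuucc
miR-27a-3p: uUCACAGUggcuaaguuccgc
miR-27b-3p: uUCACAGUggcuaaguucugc
miR-24-3p: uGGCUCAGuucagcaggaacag
The third set passed the test in the periportal flank, zones 5 and 6 against zones 7 and 8:
miR-149-5p: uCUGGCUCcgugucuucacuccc
miR-193b-3p: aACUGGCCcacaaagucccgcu
miR-802-5p: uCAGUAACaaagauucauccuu
miR-31-5p: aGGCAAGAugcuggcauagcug

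No miRNA passed the test of a difference between the mid-lobule and the ends. Of 1881 miRNAs on the array, 448 were called detected on any array, and limma was run on the 339 that at least 6 of the 24 arrays detected, with the mouse as a block and Benjamini-Hochberg adjustment at a threshold of 0.05. With 0% called higher and 0% called lower, the smallest adjusted p was 0.290, and at an unadjusted p under 0.05 there were 26 miRNAs with higher and 13 with lower mid-lobule means. Signals were scaled by array to the 75th percentile of miRNAs that all arrays detected, and undetected values were set to a floor of 0.17 on the log2 scale. The median difference over all 339, as the log2 scaled signal of mid-lobule zones minus ends, was 0.02, with 184 (54.3%) above 0. The 3 mice shared the sign in 48 miRNAs (14.2%) above 0 and 67 (19.8%) below 0. In no miRNA did the 12 mid-lobule values lie wholly above or below the 12 end values (0% of those tested). The largest difference in either direction was 0.71 log2 units.

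The width of the intervals says what size of difference these arrays could show. The median half-width of the 95% confidence interval of a difference was 0.27 log2 units. The whole interval lay within 1 log2 unit of 0 for 325 of the 339 miRNAs, within 0.5 for 200 and within 0.25 for 65. Among the 198 miRNAs detected on all 24 arrays, 172 had an interval within 0.5 log2 units and all 198 within 1. For those 198, a geometric mean in the mid-lobule 2 or more times that of the ends, or the reverse, therefore lay outside the interval of the fit. The residual of that fit is the deviation of zones within mice, and 3 animals stand behind it, since the 4 arrays of a mouse on a side are not separate animals.

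**Figure D1:**
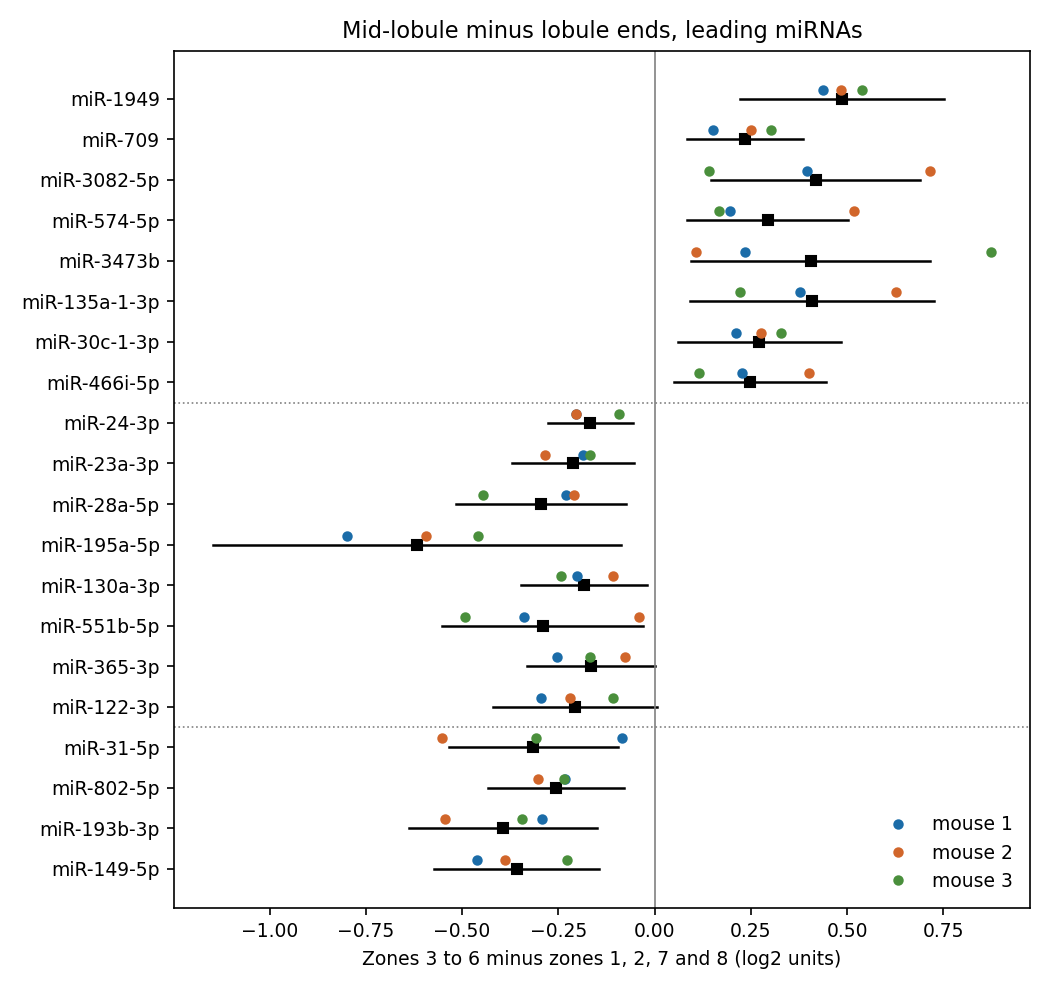
Mid-lobule minus ends difference in log2 scaled signal for the 8 miRNAs that led each side and, below them, the 4 that passed the test in the periportal flank; squares are fitted differences, lines their 95% confidence intervals, coloured points the 3 mice. No miRNA shown passed the adjusted test of mid-lobule against ends. The 8 on each side were chosen for 1 sign in all 3 mice and in both flanks, so the shared sign of their points follows from that choice. The points of the other 4 also lie on 1 side of 0.

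The 8 miRNAs that led each side were chosen for 1 sign in all 3 mice and in both flanks, so agreement between their mice adds no support. MiR-1949 led the side with higher mid-lobule values. Its log2 scaled signal ran from 2.93 to 3.70 in the mid-lobule arrays (median 3.35) and from 1.85 to 3.58 at the ends (median 2.81). The ranges overlapped. In zones 1 and 2 the 6 arrays lay between 1.85 and 3.19, and in mouse 2 zones 7 and 8 were also below every mid-lobule array, at 2.76 and 2.86. The difference was 0.49 ± 0.12 (SE; limma, adjusted p = 0.290), and it was 0.44, 0.48 and 0.54 in the 3 mice. Its difference was 0.80 ± 0.18 (SE) between zones 3 and 4 and zones 1 and 2 (limma, adjusted p = 0.101) and 0.17 ± 0.18 between zones 5 and 6 and zones 7 and 8. The first of these passed the test when only miRNAs detected on all 24 arrays were tested (limma, adjusted p = 0.0229) and without mouse 2 (adjusted p = 0.0182). It also passed when only the arrays of zones 1 to 4 were fitted (adjusted p = 0.0136), a setting added after seeing the data. Against this, the adjusted p was 1 without mouse 1 and 0.409 without mouse 3. It also did not pass with other scalings, no mouse block, miRNAs detected on at least 1 array, a lower floor, or trend and robust settings (limma, adjusted p from 0.0712 to 0.207).

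MiR-709 was brighter. Its log2 signal was 6.32 to 7.69 in the mid-lobule (median 7.00) and 6.08 to 7.47 at the ends (median 6.63), with overlapping ranges. The difference was 0.24 ± 0.07 (SE; limma, adjusted p = 0.290), and its larger share came from the periportal flank, at 0.37 ± 0.10 against 0.10 ± 0.10 in the pericentral flank (adjusted p = 0.121 and 0.742). Mean log2 signals of miR-709 were 7.13 in zones 1 and 2, 7.23 in zones 3 and 4 and 6.42 in zones 7 and 8. The ends thus differed from each other, and whether an uneven gradient gave the difference was not tested. MiR-3473b had values of 6.46 to 8.13 in the mid-lobule and 6.23 to 7.29 at the ends, and a difference of 0.41 ± 0.15 of which mouse 3 had the most (0.87, against 0.24 and 0.11 in mice 1 and 2). MiR-135a-1-3p (difference 0.41) and miR-30c-1-3p (0.27) were near the limit of detection, called on 18 and 20 arrays. For miR-30c-1-3p the direction turned to -0.18 under quantile normalization.

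The other 3 of the 8 miRNAs that led the higher side belong by sequence or family to the repeat-bearing set: miR-3082-5p, miR-574-5p and miR-466i-5p. MiR-3082-5p had log2 signals of 2.54 to 4.78 in the mid-lobule (median 3.44) and 2.34 to 4.02 at the ends (median 2.95). The ranges overlapped, and on each side the arrays of mouse 2 were higher than those of the other mice. Within mice the difference was 0.40, 0.72 and 0.14, and over all 0.42 ± 0.13 (SE; limma, adjusted p = 0.290). MiR-574-5p ran from 4.38 to 5.37 in the mid-lobule (median 4.90) and from 4.04 to 4.85 at the ends (median 4.70), with a difference of 0.29 ± 0.10. In mouse 1 its 3 highest arrays were zones 3, 4 and 5 (5.01, 5.21 and 5.17), in mouse 2 zones 3, 4 and 6 (4.97, 5.35 and 5.37), and in mouse 3 zones 5 and 6 (4.57 and 4.60), so the position of the high arrays within the mid-lobule was not the same in the 3 mice. MiR-466i-5p, at 5.79 to 6.86 in the mid-lobule and 5.55 to 6.55 at the ends, had a difference of 0.25 ± 0.09.

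**Figure D2:**
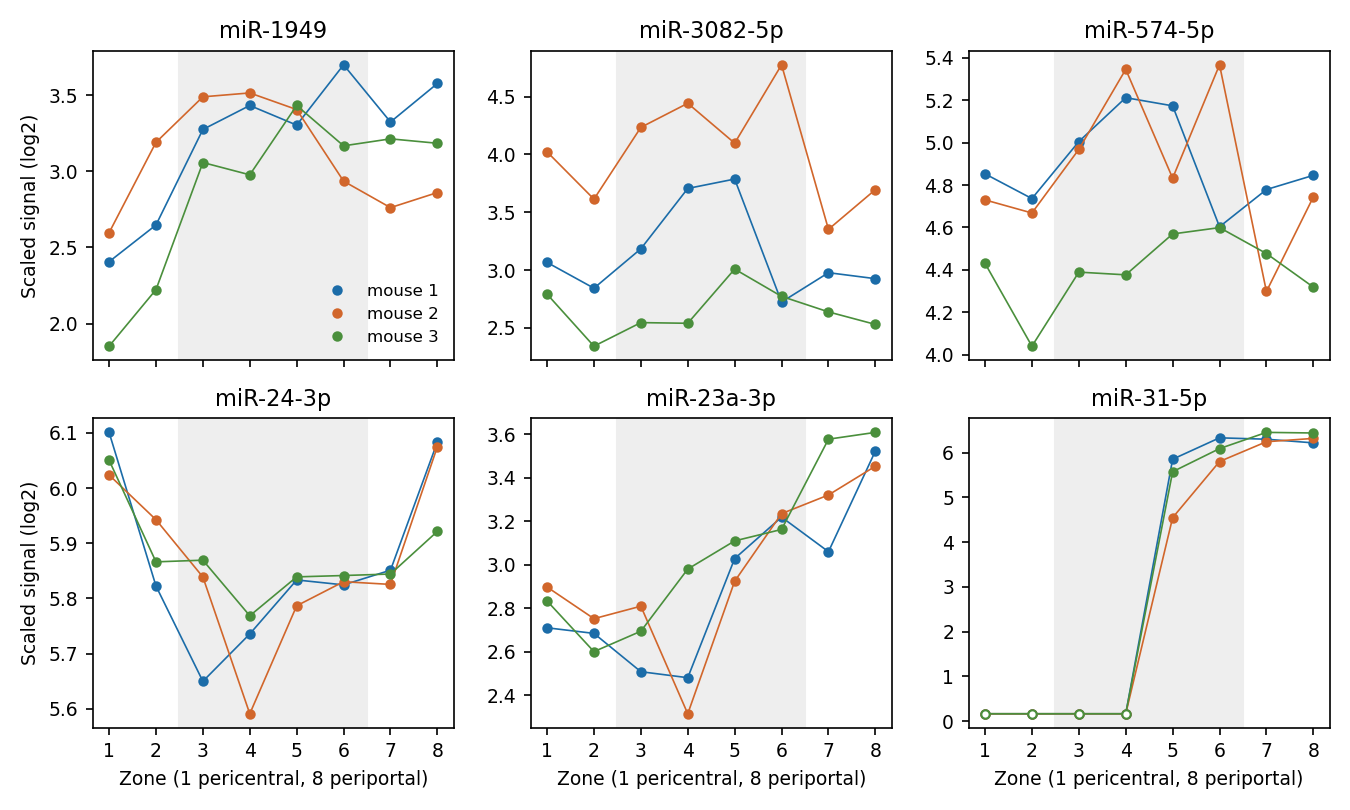
Log2 scaled signal of 6 miRNAs in each array against the zone from 1 (pericentral) to 8 (periportal), 1 line per mouse; grey shading marks the mid-lobule zones and open points arrays on which the miRNA was not detected. Medians of the middle zones against the ends are 3.35 and 2.81 for miR-1949 and 5.83 and 5.93 for miR-24-3p, with overlapping points, and miR-31-5p is at the floor in zones 1 to 4.

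The repeat-bearing miRNAs were grouped after their values were seen, so their counts carry no test. The mouse genome holds large families of these miRNAs (miR-297, miR-466, miR-467 and miR-669), whose members share much of their sequence. Of 61 such miRNAs on the array 24 were detected on any array, all of them of the miR-466, miR-467 or miR-669 families, and 18 were tested. All 18 had a mid-lobule mean above that of the ends, with a median difference of 0.30 (range 0.07 to 0.71) that was 0.16 over the 10 members detected on all 24 arrays, against 166 of the 321 other tested miRNAs and a median of 0.01. None passed the adjusted test, and 8 had an unadjusted p under 0.05. Some members met the detection filter through mouse 2 alone. MiR-466o-3p and miR-467c-3p did so with 4 mid-lobule and 2 end arrays, so their mid-lobule calls helped to admit them. MiR-467a-3p, miR-467d-3p, miR-669h-3p and miR-669n were also detected in mouse 2 only, on 4 arrays of each side. The members share sequence and arrays, and are not 18 independent observations.

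The shared sign did not hold mouse by mouse. Only 1 of the 18, miR-466i-5p, lay above 0 in mouse 1, against 18 in mouse 2 and 12 in mouse 3. Among the 10 members detected on all 24 arrays the median difference was -0.29 in mouse 1, 0.37 in mouse 2 and 0.43 in mouse 3. In mouse 1, 9 of these 10 had a lower mid-lobule mean, with miR-669f-3p at -0.67 and miR-466i-3p at -0.34, while miR-466g had -0.24 in mouse 1 and 0.77 and 0.52 in mice 2 and 3. The other 8 members were undetected on all arrays of mouse 1. Without mouse 2, 11 members lay above 0 and 1 below.

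The number of family members called detected moved with the mouse and, in mouse 2, with the side. Mouse 1 had 10 members on each of its 8 arrays. Mouse 2 had 16 to 18 on its arrays of the ends and 20 to 24 on its mid-lobule arrays, without overlap. Over all miRNAs, the mid-lobule arrays of mouse 2 detected 278 to 325 and its arrays of the ends 253 to 298, with overlap and a mean difference of 19.5. Mouse 3 had 10 on its arrays of the ends and 10 to 12 on its mid-lobule arrays.

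By sequence, miRNAs with runs of G and U and miRNAs with runs of C and A had medians of opposite sign in mouse 1, at 0.18 and -0.34, a difference that was not tested. A mature sequence was found for 286 of the 339 tested miRNAs, 53 having none in the table used. MiR-466i-5p was among those without a sequence and was placed in neither class. Searching the mature strand alone, 6 of the 286 (2.10%) held GUGUGU or UGUGUG, which overlap each other, and 5 (1.75%) held CACACA or ACACAC; among all 1679 mature sequences of the table the shares were 1.91% and 1.01%. The 6 with the G and U run had a median difference of 0.26, with 4 above 0, and 3 of them were above 0 in every mouse: miR-3082-5p, miR-574-5p and miR-1187, the last with 0.16, 0.40 and 0.13 in the 3 mice. The others were miR-669n, detected in mouse 2 only, and let-7b-5p and miR-7226-5p, both at -0.04. The 5 with the C and A run had a median of 0.14, made up of -0.34 in mouse 1, 0.35 in mouse 2 and 0.39 in mouse 3, and none was above 0 in every mouse. Over all mice 4 of them were above 0, while miR-362-3p had -0.46 and was below 0 in each mouse (-0.37, -0.77 and -0.22). The 275 sequences with neither run had a median of 0.01.

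**Figure D3:**
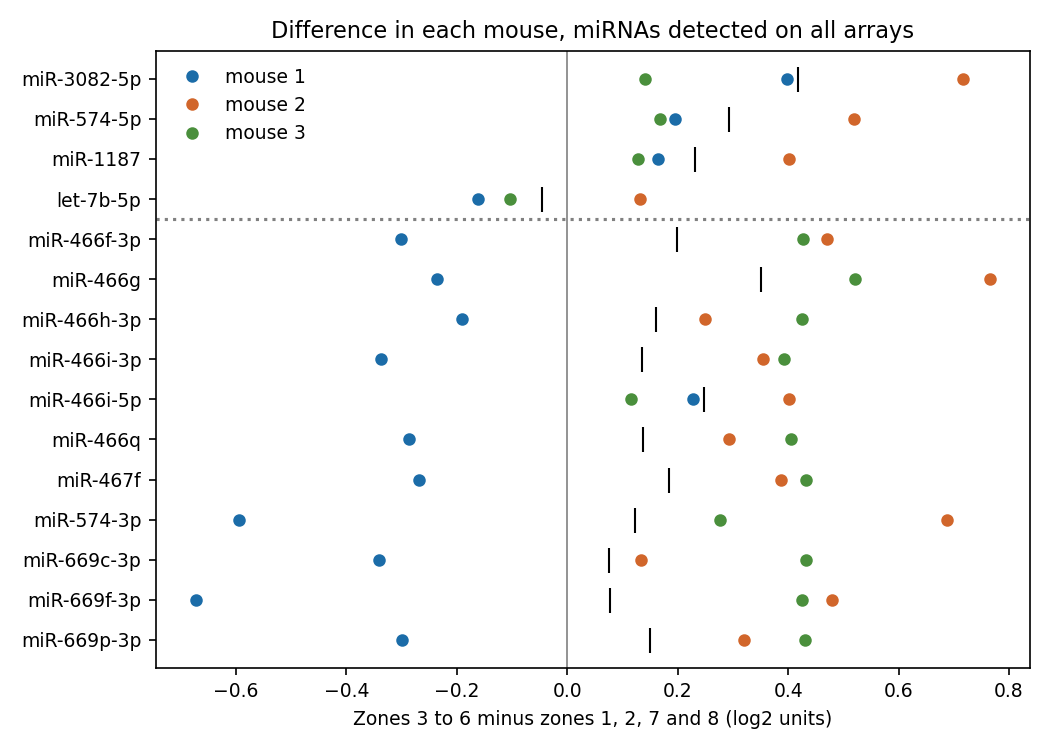
Mid-lobule minus ends difference in log2 scaled signal in each of the 3 mice (points) and over all (bar) for the repeat-bearing miRNAs detected on all 24 arrays. Above the dotted line are those found to have a G and U run. Of these, miR-3082-5p, miR-574-5p and miR-1187 lie above 0 in every mouse and let-7b-5p has -0.16, 0.13 and -0.10. Below the line are family members and miR-574-3p. Among them miR-466i-5p, which had no sequence to class, lies above 0 in every mouse. The other 10 lie under 0 in mouse 1 and above 0 in mice 2 and 3.

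A test of whether the mid-lobule minus ends difference varied between the 3 mice (moderated F of the mouse-by-side interaction) called 5 of the 339 miRNAs (1.47%), and 34 had an unadjusted p under 0.05. The 5 were miR-467c-3p, miR-467d-3p, miR-669n, miR-6923-3p and miR-467a-3p. In mouse 2 miR-467d-3p had log2 signals of 3.59, 3.23, 3.09 and 3.71 in zones 3 to 6 and of 1.85, 2.39, 2.50 and 2.61 in zones 1, 2, 7 and 8. All 4 mid-lobule arrays of that mouse were above its 4 arrays of the ends, and in mice 1 and 3 the miRNA was undetected throughout. MiR-669n behaved alike in mouse 2, at 3.01 to 3.79 in the mid-lobule and 1.80 to 2.47 at the ends. Values held at the floor in mice 1 and 3 have no spread of their own, and the count fell to 0 with only miRNAs detected on all 24 arrays, without scaling between arrays, with quantile normalization and with any mouse left out.

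**Figure D4:**
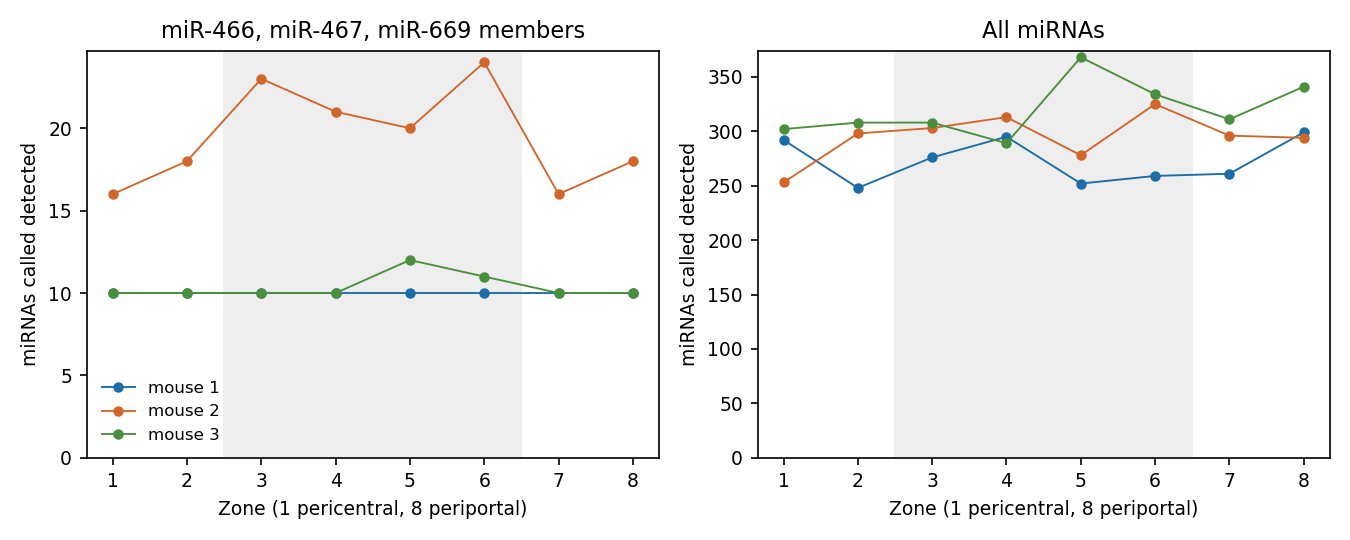
Number of miRNAs called detected on each array against zone, 1 line per mouse, for the miR-466, miR-467 and miR-669 families (left) and for all miRNAs (right); both axes start at 0 and grey shading marks the mid-lobule zones. Mouse 2 has 20 to 24 family members in its mid-lobule zones and 16 to 18 at its ends, and all arrays together range from 248 to 368 detected miRNAs.

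Among miRNAs with lower mid-lobule values in all 3 mice and in both flanks, miR-24-3p and miR-23a-3p led. Both come from paralogous clusters that also encode miR-27, known for roles in lipid metabolism and in signalling by TGF-beta; Mir23a, Mir27a and Mir24-2 lie together on the plus strand at chr8:84208563-84208896 (GRCm38.p6), and Mir27b and Mir24-1 at chr13:63300760-63301272. MiR-24-3p had log2 signals of 5.59 to 5.87 in the mid-lobule (median 5.83) and 5.82 to 6.10 at the ends (median 5.93). The ranges overlapped between 5.82 and 5.87, where the mid-lobule median and many arrays of both sides lay. The highest values were those of zones 1 and 8 in each mouse. The difference was -0.17 ± 0.05 (SE; limma, adjusted p = 0.290), or -0.20, -0.21 and -0.09 in the 3 mice. MiR-23a-3p had values of 2.32 to 3.24 in the mid-lobule and 2.60 to 3.61 at the ends, and a difference of -0.21 ± 0.08 with the larger share in the periportal flank (-0.31 ± 0.11, adjusted p = 0.404). Its mean was 2.75 in zones 1 and 2, 2.63 in zones 3 and 4, 3.11 in zones 5 and 6 and 3.42 in zones 7 and 8. Zones 5 and 6 thus lay above zones 1 and 2, and whether an uneven gradient gave the difference was not tested.

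All 5 measured members of these clusters had a difference below 0, with a median of -0.17 against 0.02 over all tested miRNAs, and none passed the test. MiR-23b-3p had -0.17 ± 0.09, miR-27b-3p -0.14 ± 0.10 and miR-27a-3p, detected on 6 of 12 mid-lobule arrays and 9 of 12 arrays of the ends, -0.35 ± 0.18. All 5 were below 0 in mice 1 and 2 and 4 of 5 in mouse 3, where miR-27a-3p had 0.13. In mouse 2 the zone 4 array was the lowest mid-lobule array for miR-23a-3p, miR-23b-3p, miR-24-3p and miR-27b-3p. It held miR-23b-3p at 6.31, against 6.81 to 6.94 on the other mid-lobule arrays of that mouse and 6.69 to 7.04 at its ends. For miR-27b-3p it held 5.04, against 5.68 to 5.73 and 5.33 to 5.75. The signs in mouse 2 without that array were not tested. The 5 stayed below 0 under each of the 3 other scalings, with medians of -0.09 to -0.17. The members share seeds, transcripts and arrays, and are not independent observations.

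The remaining miRNAs that led the lower side were of several families. MiR-28a-5p had log2 signals of 1.70 to 2.77 in the mid-lobule (median 2.05) and 1.95 to 2.97 at the ends (median 2.44), and a difference of -0.30 ± 0.10 (limma, adjusted p = 0.306). MiR-195a-5p, of the miR-15 and miR-16 family that restrains cyclins, was detected on 5 of 12 mid-lobule arrays and 9 of 12 arrays of the ends, and had the lowest difference among them, -0.62 ± 0.25 (adjusted p = 0.369). It was undetected on the mid-lobule arrays of mouse 1 and detected on all arrays of mouse 3. MiR-130a-3p (-0.18), miR-551b-5p (-0.29), miR-365-3p (-0.17) and miR-122-3p (-0.21) followed. In mouse 2 the zone 4 array was the lowest mid-lobule array for miR-365-3p, at 6.41 against 6.83 to 7.19 on the others. The same array was the lowest for miR-122-3p, at 4.89 against 5.82 to 6.21. MiR-122-5p, the dominant hepatocyte miRNA and the partner strand of the last, had a difference of -0.01 ± 0.08 and made up 13.0% ± 3.14 (SD, n = 12 arrays) of the summed signal in the mid-lobule and 12.7% ± 4.47 at the ends.

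The comparison was then divided into its flanks, each setting a pair of mid-lobule zones against the pair at its own end; here a gradient no longer cancels. In the pericentral flank, zones 3 and 4 against zones 1 and 2, no miRNA passed (0% in either direction), with 18 higher and 11 lower at an unadjusted p under 0.05. In the periportal flank, zones 5 and 6 against zones 7 and 8, 0% were called higher and 4 of 339 (1.18%) lower in zones 5 and 6: miR-149-5p, miR-193b-3p, miR-802-5p and miR-31-5p. At an unadjusted p under 0.05 that flank had 10 higher and 13 lower.

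MiR-31-5p, a miRNA known from growth control of epithelia, was the brightest of the 4. In mouse 1 its log2 signals in zones 5 to 8 were 5.85, 6.33, 6.30 and 6.22, in mouse 2 they were 4.55, 5.80, 6.24 and 6.32, and in mouse 3 they were 5.57, 6.09, 6.45 and 6.44. Zone 5 was the lowest in each mouse, while zone 6 of mouse 1 was above both its end zones, so the pairs overlapped. The difference was -0.63 ± 0.15 (SE; limma, adjusted p = 0.0464). Its partner strand miR-31-3p had -0.84 ± 0.22 and did not pass (adjusted p = 0.105), although it was 1 of 2 miRNAs (0.59% of those tested) whose 6 values in zones 5 and 6 all lay below the 6 in zones 7 and 8.

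MiR-802-5p, which is linked to hepatic glucose control, had log2 signals of 2.82, 3.57, 3.74 and 3.58 in zones 5 to 8 of mouse 1, of 3.42, 4.10, 4.39 and 4.35 in mouse 2 and of 3.24, 3.53, 3.91 and 3.79 in mouse 3. Within each mouse both mid-lobule arrays were below both end arrays, and the difference was -0.51 ± 0.12 (SE; limma, adjusted p = 0.0464). MiR-149-5p was detected on 4 of 6 arrays of zones 5 and 6 and on 6 of 6 of zones 7 and 8, and miR-193b-3p on 2 of 6 and 5 of 6. Their differences, -0.72 ± 0.14 and -0.79 ± 0.16 (adjusted p = 0.0280 for each), therefore rest in part on the floor given to undetected values. Mir193b lies on chromosome 16 close to Mir365-1, 1 of the 2 genes of miR-365-3p, which had -0.09 ± 0.11 in this flank.

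None of these 4 was detected on any array of zones 1 to 4, so both pericentral pairs sat at the floor, and the whole difference of mid-lobule against ends came from the periportal side (miR-31-5p -0.31, miR-802-5p -0.26, miR-149-5p -0.36 and miR-193b-3p -0.39; adjusted p = 0.290 for each). Those floor values also entered the spread of the fit. With the 12 arrays of zones 5 to 8 alone, none of 334 miRNAs passed and the smallest adjusted p was 0.0910 (limma). That fit also had fewer arrays and another set of tested miRNAs, and which of these changes removed the calls was not tested. The count was also 0 with no mouse block, with a lower floor, without scaling or with the summed signal as the scale, and without mouse 1 or mouse 2; it was 1 without mouse 3 and 2 with quantile normalization. The difference between the flanks themselves passed for 0 of 339 miRNAs (0%; smallest adjusted p 0.570, 22 at an unadjusted p under 0.05).

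**Figure D5:**
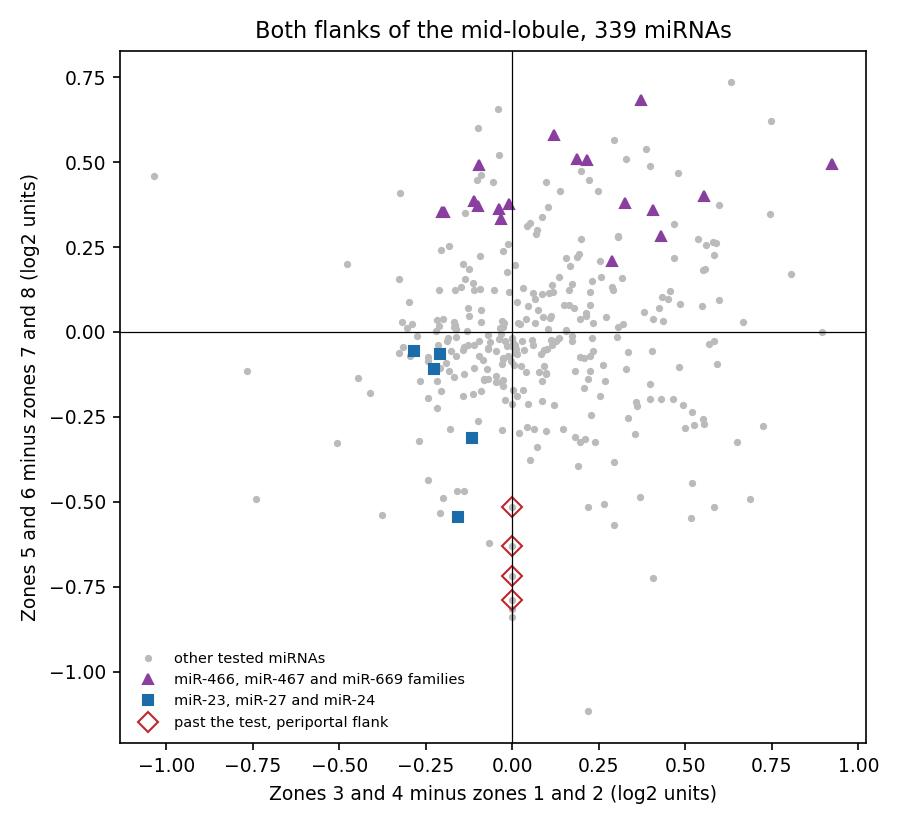
Difference of zones 5 and 6 against zones 7 and 8 (vertical) against that of zones 3 and 4 against zones 1 and 2 (horizontal), in log2 scaled signal, 1 point for each of the 339 tested miRNAs. The 18 family members (triangles) lie above 0 on the vertical axis and on both sides of 0 on the horizontal, the 5 members of the miR-23a and miR-23b clusters (squares) lie below 0 on both, and the 4 miRNAs past the test (diamonds) lie at 0 on the horizontal axis, undetected in zones 1 to 4.

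No miRNA passed a test of its detection calls, which use neither floor nor scale. Of 250 miRNAs detected on some but not all arrays, none passed in an exact test conditioned on each mouse's number of calls (0%; smallest adjusted p 1, and 2 at an unadjusted p under 0.05). Those 2, miR-207 and miR-467e-3p, were detected on the 4 mid-lobule arrays of mouse 2 and nowhere else (exact p = 0.0286 for each). A miRNA detected in 1 mouse only cannot reach a lower p in this test, so such miRNAs could hardly pass the adjustment. MiR-5121 was called on 4 mid-lobule arrays, 2 in mouse 1 and 1 in each other mouse, and on none of the ends (exact p = 0.107). In all, 48 of the 250 miRNAs were detected in the mid-lobule only and 15 of the 250 at the ends only. Of these, 10 and 1 were called on 3 or more arrays. Most of the 10 were called in mouse 2 alone, and the 1, miR-532-5p, was called on 3 arrays of mouse 3.

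No difference in array totals was detected between the sides. The number of miRNAs detected per array was 300.0 ± 32.8 in the mid-lobule and 291.9 ± 26.4 at the ends (SD, n = 12 arrays each), a difference of 8.08 that was -4.5, 19.5 and 9.25 in the 3 mice (exact permutation test within mice, two-sided p = 0.401). The log2 of the summed signal was 16.41 ± 0.37 and 16.50 ± 0.43 (two-sided exact permutation p = 0.348), with the linear sum between 57935 and 138301 on single arrays. The 5 control sequences detected on all arrays had scaled mid-lobule minus ends differences of 0.04 to 0.22 (median 0.09), all above 0. Whether an offset of this size entered the differences of single miRNAs was not tested. Each side had 6 arrays in each slide row and 3 in each slide column, and each mouse was 1 slide, so mouse and slide cannot be told apart. As in any bulk RNA, fewer cells holding a miRNA and less of it per cell cannot be told apart.

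Groups of miRNAs tied to mid-lobule biology showed no call in the mid-lobule against ends test. Of miRNAs linked to cyclin D1, a driver of entry into the cell cycle, 9 of 10 tested had a difference below 0 (median -0.07), among them miR-16-5p at -0.14 ± 0.09. The 4 tested miRNAs linked to mTOR, a growth kinase, were all below 0 (median -0.11), with miR-101b-3p at -0.22 ± 0.13 and miR-99a-5p at -0.14 ± 0.09. All 8 of the iron-handling list were below 0 (median -0.07), with miR-130a-3p lowest. With each array divided by its summed signal in place of the percentile, the counts below 0 became 5 of 10, 2 of 4 and 3 of 8, and the median of all tested miRNAs moved from 0.02 to 0.09, so these directions depend on the scale. In mouse 2 alone, 5 of 10 cyclin D1 and 3 of 8 iron-handling miRNAs were below 0, against all of them in mice 1 and 3; of the mTOR list 4 of 4 were, against 3 of 4 in mouse 1 and 4 of 4 in mouse 3.

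Hepatocyte and growth families gave small differences too. The 14 hepatocyte-abundant miRNAs had a median of -0.08 with 13 below 0, the let-7 family, which restrains growth genes, -0.10 with 9 of 9, the miR-30 family -0.08 with 7 of 8, the miR-29 family, which represses collagens, -0.10 with 3 of 4, and the proliferation-linked miR-17 to miR-92 clusters -0.05 with 6 of 9. On the summed-signal scale the counts below 0 were 7 of 14, 6 of 9, 4 of 8, 2 of 4 and 3 of 9, and with quantile normalization 8 of 14 hepatocyte-abundant and 1 of 4 miR-29 miRNAs were below 0. Mouse 2 stood apart here as well: in that mouse 1 of 9 miRNAs of the proliferation-linked clusters was below 0, against 9 of 9 in mice 1 and 3, and 6 of 14 hepatocyte-abundant miRNAs, against 14 of 14. The let-7 family had 5 of 9 below 0 in mouse 2, against 9 of 9 in the others, the miR-30 family 4 of 8, against 7 and 8, and the miR-29 family 3 of 4, against 3 and 4. Of lists linked to liver zonation, the Wnt-linked list had a median of -0.09 (7 of 8 below 0), the hypoxia list -0.08 (5 of 5) and the lipid and glucose list -0.06 (10 of 12), and on the summed-signal scale 5, 2 and 5 members were below 0. In mouse 2 the counts were 4 of 8, 3 of 5 and 6 of 12, against 8, 5 and 11 in mouse 1 and 7, 5 and 12 in mouse 3. The imprinted Dlk1-Dio3 cluster had 28 members on the array, 13 detected and 3 tested, with differences of -0.29 to 0.08. The 7 miRNAs whose level steps between zones 4 and 5, a list drawn from these arrays, were below 0 under all scalings (median -0.16), and they include miR-31 and miR-802-5p described above.

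Markers of other liver cells were few. The 7 leukocyte and Kupffer cell miRNAs and the 4 erythroid miRNAs measured were undetected throughout, while 1 of 9 stellate and fibroblast and 1 of 5 biliary miRNAs were detected, each on too few arrays to test; their summed scaled signal on single arrays was 0 to 8.11 in the mid-lobule and 0 to 12.04 at the ends for the stellate list, and 0 and 0 to 1.88 for the biliary list. Of 4 endothelial miRNAs on the array 1 was detected, miR-126a-3p, the defining endothelial miRNA. Its log2 signal was at the floor of 0.17 up to 3.51 in the mid-lobule, where it was detected on 9 of 12 arrays, and 0.17 to 2.93 at the ends, where it was detected on 7 of 12. The summed scaled signal of the endothelial list was 0 to 11.4 on mid-lobule arrays and 0 to 7.65 at the ends. The difference of miR-126a-3p was 0.40 ± 0.19 (limma, adjusted p = 0.403), or 0.50, 0.43 and 0.29 in the 3 mice, and its part in the other differences was not tested.

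The 3 brightest miRNAs carried most of the signal on both sides in nearly equal shares. MiR-6366 made up 32.8% ± 3.16 of the summed signal in the mid-lobule and 32.7% ± 4.78 at the ends, and miR-3963 26.5% ± 2.81 and 26.7% ± 3.24 (SD, n = 12 arrays each). Their differences in log2 scaled signal were -0.07 ± 0.11 and -0.09 ± 0.09 (SE).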

How the data were processed

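The deposited values used were intensity values, 1 total signal per miRNA on a linear scale, together with a deposited detection call of 1 or 0 per miRNA, per the file headers. Agilent Feature Extraction made them, per the submitters' processing notes, and its version is not given in the sources used here. Undetected miRNAs carry a constant deposited signal. The deposited error of detected signals had a median of 11.2% of the signal.

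Control sequences were left out. Signals were scaled by the 75th percentile of each array over the 198 miRNAs that all arrays detected, brought back to the mean percentile, given a floor of 1.12 (the lowest detected signal of an array, as a median over the 24) and log2-transformed, the floor then being 0.17. Models were fitted with limma 3.58.1 in R 4.3.3 on all 24 arrays, with zone as a factor of 8 levels and mouse as a block; the mid-lobule contrast is the mean of zones 3 to 6 minus the mean of zones 1, 2, 7 and 8. Tests are two-sided. Exact tests permuted arrays within mice (343000 arrangements). The scripts were tested on simulated data. Numbers pair arrays because the 8 populations of a number come from 1 animal. Deviations from zone means correlated within mice with a median of 0.61 (lowest 0.25). As each mouse was 1 slide, this correlation cannot tell a shared animal from a shared slide.

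The comparison and all lists were chosen with earlier results of these data known. Named miRNAs are those past the threshold by size, then the highest or lowest moderated t with 1 sign in all 3 mice and both flanks until 8 a side, up to 3 past the threshold per flank, up to 3 per list by moderated t, the 3 brightest, and up to 3 per side by detection gap. The repeat-bearing families and sequence classes with the members singled out from them, and miR-6923-3p and miR-532-5p, were named after their values were seen. Alternatives were other scalings, detection filters, a lower floor, limma with trend and robust settings, no block, slide terms, other zone sets and each mouse left out.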

Additional observations from a re-analysis of the deposited data

Results flagged for a closer look

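For 5 miRNAs the mid-lobule minus ends difference in log2 scaled signal was called different between the 3 mice (limma, moderated F of the mouse-by-side interaction over 339 miRNAs). MiR-467c-3p had a difference of 2.13 in mouse 2 (adjusted p = 0.0110), miR-467d-3p 1.07 (adjusted p = 0.0110), miR-669n 1.15 (adjusted p = 0.0110) and miR-467a-3p 1.43 (adjusted p = 0.0273), and all 4 were undetected on every array of mice 1 and 3. MiR-6923-3p (adjusted p = 0.0173) had 1.87 in mouse 2, where it was detected in zones 2 to 6, -0.49 in mouse 3, where it was detected throughout, and was undetected in mouse 1.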

How the results depend on the processing

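The count of 0 calls for mid minus ends was also 0 under the other scalings, filters, floor, limma settings, slide terms, the quadratic term and zones 4 and 5 against zones 1 and 8, with each mouse left out (0 to 0) and with no mouse block, where the smallest adjusted p was 0.661 (limma). Leaving out a single zone lets the gradient in, by construction, and gave 12, 11, 2, 2, 4, 10, 4 and 3 calls without zones 1 to 8 in turn. Mirrored pairs of zones left out, chosen after seeing the data, gave 0 calls except without zones 3 and 6, with 1 call, miR-149-5p at -0.65 (limma, adjusted p = 0.0257).

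The pericentral flank had 1 call, miR-1949, with miRNAs detected on all 24 arrays and with the arrays of the flank alone (added after seeing the data), and 0 to 1 with a mouse left out. The 4 periportal calls became 0 with no mouse block, with the 75th percentile over all miRNAs (which leaves arrays unscaled), the summed signal, miRNAs detected on all 24 arrays, a floor 4 times lower, the arrays of the flank alone, or trend and robust settings, 2 with quantile normalization, and 0 to 1 with a mouse left out. The 5 calls of the mid-lobule effect by mouse became 0 on unscaled arrays, with quantile normalization, with miRNAs detected on all 24 arrays and with each mouse left out (0 to 0), and 2 with the lower floor and with trend and robust settings. Except for the filters and left-out samples, which change what is tested, the cause was not tested. With no mouse block, no other call changed.

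Of 853 recomputed mid-lobule differences of 32 miRNAs, 796 kept direction and side of the threshold, 27 passed it, all but 1 without a single zone, and 30 changed sign. Without zones 3, 4, 7 and 8 in turn the difference became 0.61, 0.61, 0.71 and 0.71 for miR-31-5p, 0.29, 0.29, 0.39 and 0.36 for miR-802-5p, 0.11, 0.11, 0.25 and 0.25 for miR-31-3p and 0.035, 0.061, 0.091 and 0.079 for miR-122-5p. MiR-122-5p also turned to 0.034 with the quadratic term, 0.042 and 0.039 without zones 2 and 7 and without zones 4 and 5, and 0.072 with the summed signal, and ran from -0.054 to 0.021 with a mouse left out. MiR-99a-5p turned to 0.040, 0.075 and 0.066 without zones 4, 7 and 8. MiR-6366 turned to 0.011 and 0.0078 without zones 1 and 6 and 0.014 with the summed signal, and ran from -0.117 to 0.0026 with a mouse left out. With quantile normalization miR-30c-1-3p turned to -0.18 and miR-3963 to 0.092. Of these, miR-31-5p without each of the 4 zones and miR-802-5p without zone 7 passed the test in the new direction.

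Arrays carry no counting depth; the number of arrays and the floor limit precision, and differences of miRNAs near the floor are compressed.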
